A study of Mus musculus with 54 samples.

Results

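The ZFP36, Regnase, and Roquin genes code for proteins that bind mRNAs and speed their removal, and 7 of them were followed here as a group chosen by name: Zfp36, Zfp36l1, Zfp36l2, Zc3h12a, Zc3h12d, Rc3h1, and Rc3h2. They were 7 of the 55385 genes listed in the count tables, and each had reads in every library. Their mRNA was measured in naive CD4+ T cells purified from pooled lymph nodes and spleens of C57BL/6 mice that were 8–10 wk old. The cells were either left unstimulated (0 h) or cultured for 4 or 20 h in plates coated with anti-CD3 (3 µg/ml), with anti-CD28 added in solution (1 µg/ml), antibodies that engage the T cell receptor (TCR) and its costimulatory receptor. The CD5/CD6 experiment held WT, Cd5-/-, Cd6-/-, and Cd5-/-Cd6-/- cells (36 libraries), and the LAT experiment held WT and Lat-/- cells (18 libraries), with 3 libraries per genotype and time. Cd5-/- mice were a conventional knockout backcrossed to C57BL/6, whereas the Cd6-/- and Cd5-/-Cd6-/- mice were made by genome editing, the latter by removal of the Cd5-Cd6 interval. WT and Lat-/- cells of the LAT experiment came from the same Lat fl-dtr maT-Cre mice, in which Cre removes a floxed Lat allele in T cells, and they were separated by flow sorting as hDTR+ (labelled WT) and hDTR- (labelled Lat-/-) cells. LAT is an adaptor protein that relays TCR signals, and CD5 and CD6 are surface receptors that bind adaptors and enzymes near the TCR.

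ZFP36 (also called tristetraprolin) and its paralogs ZFP36L1 and ZFP36L2 bind AU-rich elements in 3′ untranslated regions through paired zinc fingers and recruit the CCR4-NOT complex, which shortens the poly(A) tail. Regnase-1 (Zc3h12a) is an endoribonuclease that cuts stem-loops in mRNAs of immune genes and is itself cleaved by the protease MALT1 after TCR engagement, and Regnase-4 (Zc3h12d) is a related protein. Roquin-1 (Rc3h1) and Roquin-2 (Rc3h2) recognize stem-loops in mRNAs such as Icos and Tnfrsf4 and also recruit CCR4-NOT. In T cells these proteins are known for restraining cytokine and costimulatory receptor mRNAs.

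The members lie on 7 chromosomes of GRCm38. Zfp36 (ENSMUSG00000044786.6) is at chr7:28376784-28380253, Zfp36l1 (ENSMUSG00000021127.7) at chr12:80107754-80113013, Zfp36l2 (ENSMUSG00000045817.8) at chr17:84183931-84187947, and Zc3h12a (ENSMUSG00000042677.7) at chr4:125118423-125127840, all on the minus strand. Zc3h12d (ENSMUSG00000039981.6) is at chr10:7832470-7870396 and Rc3h1 (ENSMUSG00000040423.11) at chr1:160906418-160974978 on the plus strand, and Rc3h2 (ENSMUSG00000075376.10) is at chr2:37370069-37422903 on the minus strand. Each of the ZFP36 paralogs overlaps an annotated noncoding gene on the opposite strand, and the use of strand in counting is not given in the sources used here, so reads of such partners could have been counted in part with the members.

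The 7-base core that ZFP36 proteins bind, TATTTAT in DNA letters, was searched on the transcript strand in the 3′ untranslated region of the longest coding transcript of each member (GENCODE M21), counting overlapping matches separately. It occurred in 5 of the 7 members, with 3 matches in Zfp36, 3 in Zfp36l1, 3 in Zfp36l2, 2 in Rc3h1, and 3 in Rc3h2, whereas these letters were not in the Zc3h12a and Zc3h12d regions. Among genes whose 3′ untranslated region was within 10% of the same length, at least 1 match was held by 19.7% for Zfp36, 39.3% for Zfp36l1, 38.7% for Zfp36l2, 78.6% for Rc3h1, and 71.8% for Rc3h2. Of the cytokine mRNAs described further on, Tnf held 8 matches, Ifng 4, and Il2 3, and at least 1 match was present in 20.7%, 18.4%, and 15.0% of genes with regions of those lengths. One stretch of 27 bases is shown for each ZFP36 paralog and for Tnf and Il2, since they pair the element that these proteins read with mRNAs that moved after stimulation. Binding to these stretches, and any part of it in the mRNA levels, was not tested. Capitals mark the bases of the matches, and coordinates are of GRCm38.
Zfp36, chr7:28376967-28376993, minus strand: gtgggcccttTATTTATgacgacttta
Zfp36l1, chr12:80108423-80108449, minus strand: tatcaaaacgTATTTATtgccaaacta
Zfp36l2, chr17:84184915-84184941, minus strand: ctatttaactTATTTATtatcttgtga
Tnf, chr17:35199683-35199709, minus strand: tatTATTTATTATTTATTTATtattta
Il2, chr3:37121052-37121078, minus strand: taaggctctcTATTTATttaaatattt

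RefSeq promoter windows of GRCm38.p6, from 250 bases before to 50 bases after the RefSeq start of the gene, were found for 6 of the 7 members, and the window of Zfp36l2 was not analysed here. They were searched on both strands for the AP-1 site TGANTCA, the CRE TGACGTCA, and the CArG box and NF-kB site by name, motifs of factors that TCR signals can activate. Zfp36 held a CArG box that began 58 bases before the start, a motif present in 1.57% of 27025 promoters. Zfp36l1 and Rc3h1 each held an AP-1 site (7.93% of promoters), and Rc3h2 held an NF-kB site (9.29% of promoters). The CRE (1.88% of promoters) matched in none of the 6 windows, and the windows of Zc3h12a and Zc3h12d held none of the 4 motifs. Any part of these motifs in the courses of the mRNAs was not tested. The windows of Zfp36 and Zfp36l1 are shown because the mRNAs of these paralogs took different courses in the first 4 h, and capitals mark the motif matches.
Zfp36, chr7:28379179-28379478, minus strand: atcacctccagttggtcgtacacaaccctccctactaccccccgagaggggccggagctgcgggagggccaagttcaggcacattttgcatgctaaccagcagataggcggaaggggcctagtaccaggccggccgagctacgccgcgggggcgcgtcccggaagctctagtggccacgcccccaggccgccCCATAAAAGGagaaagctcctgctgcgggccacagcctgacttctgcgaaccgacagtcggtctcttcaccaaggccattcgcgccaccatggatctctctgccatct
Zfp36l1, chr12:80112964-80113263, minus strand: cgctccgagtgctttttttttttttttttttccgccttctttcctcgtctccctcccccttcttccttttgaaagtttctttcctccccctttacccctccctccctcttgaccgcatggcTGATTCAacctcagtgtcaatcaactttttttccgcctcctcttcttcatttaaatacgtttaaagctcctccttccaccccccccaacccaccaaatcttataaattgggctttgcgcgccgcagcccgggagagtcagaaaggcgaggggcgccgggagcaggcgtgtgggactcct

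The libraries held 20554354 to 45222554 counted reads in the CD5/CD6 experiment and 17784644 to 28501095 in the LAT experiment, so the members were well above the level of 3 reads, which equals at most 0.176 CPM, the counts scaled to a common library size. The targeted genes followed their labels, with Lat at 5.69 to 19.1 CPM in Lat-/- and 92.2 to 351 CPM in WT libraries of the LAT experiment, except for a pair of libraries at 0 h. Lat was at 459 to 1345 CPM in WT libraries of the CD5/CD6 experiment, so that the cells labelled WT in the LAT experiment held less Lat mRNA than those, with means of 249 against 704 CPM at 0 h. The library labelled Cd5-/- replicate 2 had 719 CPM of Cd5 and 329 of Cd6, and the library labelled Cd6-/- replicate 2 had 172 CPM of Cd5 and 1203 of Cd6, whereas the other Cd5-/- libraries at 0 h had 105 and 129 CPM of Cd5 and the other Cd6-/- libraries 251 and 349 CPM of Cd6. Each of the pair was thus high for the gene its own label removes and low for the gene the other label removes, as if exchanged. Both were kept under their labels, and results that use them were also obtained without them. The summed CPM of 6 T cell markers (Cd3e, Cd3g, Cd4, Trac, Lef1, and Ccr7) was 4807 to 6295 at 0 h in the CD5/CD6 experiment and 5479 to 6927 in the LAT experiment. Markers of other cells were present at 0 h in the CD5/CD6 experiment, with 52.2 to 481 CPM for 4 B cell markers, 40.1 to 341 for 5 myeloid markers, 4.27 to 33.2 for 2 NK markers, 29.9 to 85.1 for 2 CD8 T cell markers, and 23.5 to 90.3 for 2 gamma delta T cell markers. The gamma delta sum differed between genotypes. At 4 h it was 19.0 to 21.1 CPM in WT, 51.1 to 57.2 in Cd5-/-, 14.3 to 25.8 in Cd6-/-, and 55.3 to 76.2 in Cd5-/-Cd6-/- libraries. At 20 h the B cell sum was 1.21 to 4.33 and the myeloid sum 0 to 0.564 CPM. The NK sum was then 0 to 0.795, the CD8 sum 15.9 to 30.8, and the gamma delta sum 3.33 to 15.1 CPM. In the flow-sorted cells of the LAT experiment, the B cell sum was 1.43 to 4.73 and the myeloid sum 1.58 to 3.10 CPM at 0 h. The NK sum was 0.186 to 4.27 there, whereas the CD8 sum, at 30.3 to 35.7, and the gamma delta sum, at 12.0 to 33.4 CPM, overlapped those of the CD5/CD6 experiment. In bulk samples, fewer cells of a type and less RNA per cell cannot be told apart. The part of these other cells in the values of the members, or in comparisons between genotypes, was not tested.

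The first comparison asked how the members responded to TCR and CD28 engagement in WT cells. After 4 h the ZFP36 paralogs had taken 3 different courses: Zfp36l1 rose 6.23-fold, Zfp36l2 dropped to 0.166 of its starting level, and Zfp36 stayed within the spread of its 0 h libraries. Zc3h12a, Zc3h12d, Rc3h1, and Rc3h2 rose by smaller amounts. After 20 h Zfp36 had fallen to 0.132 and Zfp36l2 to 0.124 of the 0 h level, and Zc3h12d was the only member that was higher than at 0 h. With edgeR's quasi-likelihood test and a call at an adjusted p under 0.05, 5 members rose and 1 fell at 4 h, where 28.5% of the genes tested were called. At 20 h against 0 h 1 rose and 4 fell (37.9% of genes called), and at 20 h against 4 h 1 rose and 5 fell (30.5% of genes called). The median log2 fold change of the 7 members was 0.64 at 4 h and -0.43 at 20 h. Over the 11147 to 11473 genes with a mean of at least 1 CPM the median lay between -0.06 and 0.04 in all 35 comparisons. The scaling by TMM factors sets the bulk of genes near 0, so this median is not an observed contrast. With library totals instead, every gene shifted by a log2 of -0.25 at 4 h and -0.14 at 20 h. The 9200 genes called at 4 h came from 32290 genes with at least 1 read in total, of which 11473 had a mean of at least 1 CPM. This and the later shares thus cover many genes with few reads, and shares among genes expressed like the members are not given here. The counts of members therefore cannot be read as an excess over such genes. The directions and sizes are described member by member, since a large share of all genes was called.

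Zfp36l1, the paralog with the steepest rise, had 305, 272 and 269 CPM in the WT libraries at 0 h, 1857, 1746 and 1665 CPM at 4 h, and 197, 246 and 183 CPM at 20 h. The 4 h libraries were far above all others, and the 20 h libraries were all below those of 0 h. The log2 fold change was 2.64 (SE 0.17, adjusted p = 4.9e-23) at 4 h and -0.43 (SE 0.16, adjusted p = 0.024) at 20 h; the latter was not called without replicate 1 (adjusted p = 0.25).

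Zfp36l2, which with Zfp36l1 is known to restrain proliferation of lymphocyte precursors, had 1592, 715 and 815 CPM at 0 h, 199, 173 and 146 CPM at 4 h, and 145, 135 and 107 CPM at 20 h. All stimulated libraries were below all unstimulated ones, although the 0 h libraries differed from each other by more than those of any other WT group of a member in the CD5/CD6 experiment. The log2 fold change was -2.59 (SE 0.26, adjusted p = 6.8e-14) at 4 h and -3.01 (SE 0.26, adjusted p = 1.4e-16) at 20 h. Between 4 and 20 h the log2 difference was -0.42 (SE 0.25, adjusted p = 0.23), which was not called; in a fit of these groups alone it was (adjusted p = 0.017), as it was without replicate 3 (adjusted p = 0.0066).

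Zfp36 is widely known as an immediate early gene, and its mRNA was already abundant in the unstimulated libraries, with 446, 728 and 686 CPM. It had 594, 596 and 672 CPM at 4 h, inside the range of the 0 h libraries, and 74.0, 89.7 and 81.8 CPM at 20 h, below every earlier library. The log2 fold change was 0.00 (SE 0.16, adjusted p = 1) at 4 h, with a 95% interval of -0.30 to 0.31, and -2.92 (SE 0.17, adjusted p = 7.9e-26) at 20 h. The sign of the 4 h value depended on the scaling, being -0.25 (adjusted p = 0.28) with library totals alone, a scaling that shifted every gene by -0.25 at this time.

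The high levels of Zfp36 and Zfp36l2 at 0 h came with early response genes that differed between replicate numbers. In the 12 libraries at 0 h of the CD5/CD6 experiment, Fos, a subunit of the transcription factor AP-1, ran from 855 to 1167 CPM in the 4 replicate 1 libraries through 574 to 647 in replicate 2 to 52.9 to 284 in replicate 3. Dusp1, a phosphatase that restrains the p38 kinase upstream of ZFP36, was at 423 to 524, 229.7 to 279.8, and 40.1 to 138 CPM in these libraries. Zfp36l2 was at 1049.7 to 1637, 715 to 1229, and 372 to 815 CPM, so that its replicate 1 and replicate 3 libraries did not overlap. Zfp36 was at 446 to 543, 668 to 728, and 535 to 686 CPM, with replicate 1 the lowest. In the LAT experiment, where Fos was at 394 to 555, 190.4 to 271, and 390.2 to 469.7 CPM at 0 h, Zfp36l2 was at 654 to 672, 327 to 507, and 821 to 987 CPM. Zfp36 was there at 516 to 638, 369 to 443, and 497 to 616 CPM. Replicate 2 was the lowest for Fos, Zfp36l2, and Zfp36 alike. The part of the early response in the 0 h level of the members was not tested.

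Zc3h12a (Regnase-1) had 32.7, 32.5 and 20.9 CPM at 0 h, 44.2, 67.4 and 38.8 CPM at 4 h, and 25.8, 21.9 and 18.8 CPM at 20 h. The 4 h libraries were above all others, and those of 0 and 20 h overlapped. The log2 fold change was 0.81 (SE 0.25, adjusted p = 0.0082) at 4 h and -0.37 (SE 0.25, adjusted p = 0.28) at 20 h, and without replicate 2 the 4 h value was not called (adjusted p = 0.056), whereas without replicate 3 the 20 h value was (log2 -0.45, adjusted p = 0.01). Zc3h12d (Regnase-4) had 62.7, 69.9 and 67.8 CPM at 0 h, 119.6, 88.8 and 83.4 CPM at 4 h, and 191, 162 and 162 CPM at 20 h, with no overlap between times. Its log2 fold change was 0.54 (SE 0.16, adjusted p = 0.0058) at 4 h and 1.36 (SE 0.16, adjusted p = 4.0e-11) at 20 h, and the 4 h value was not called without replicate 1 (adjusted p = 0.38). The Regnase genes took opposite directions after 4 h, with log2 differences between 20 and 4 h of -1.18 (SE 0.25, adjusted p = 9.3e-05) for Zc3h12a and 0.82 (SE 0.16, adjusted p = 2.4e-05) for Zc3h12d.

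Rc3h1 (Roquin-1) had 150.1, 134 and 124 CPM at 0 h, 225, 230.5 and 182 CPM at 4 h, and 144, 107 and 75.8 CPM at 20 h. The 4 h libraries were above all others, and the 20 h libraries, which spread widely, overlapped those of 0 h. Its log2 fold change was 0.64 (SE 0.20, adjusted p = 0.01) at 4 h, not called without replicate 2 (adjusted p = 0.057), and -0.32 (SE 0.20, adjusted p = 0.25) at 20 h, called when the replicate number was kept as a block (log2 -0.36, adjusted p = 0.041). Rc3h2 (Roquin-2) had 60.3, 70.7 and 60.0 CPM at 0 h, 114, 120.4 and 108 CPM at 4 h, and 29.4, 26.1 and 23.0 CPM at 20 h, without overlap between times. Its log2 fold change was 0.84 (SE 0.16, adjusted p = 5.3e-06) at 4 h and -1.28 (SE 0.16, adjusted p = 7.7e-11) at 20 h. With library totals in place of TMM factors, Zc3h12a, Zc3h12d, and Rc3h1 kept their direction at 4 h but were not called, with adjusted p = 0.16, 0.2, and 0.21.

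**Figure D1:**
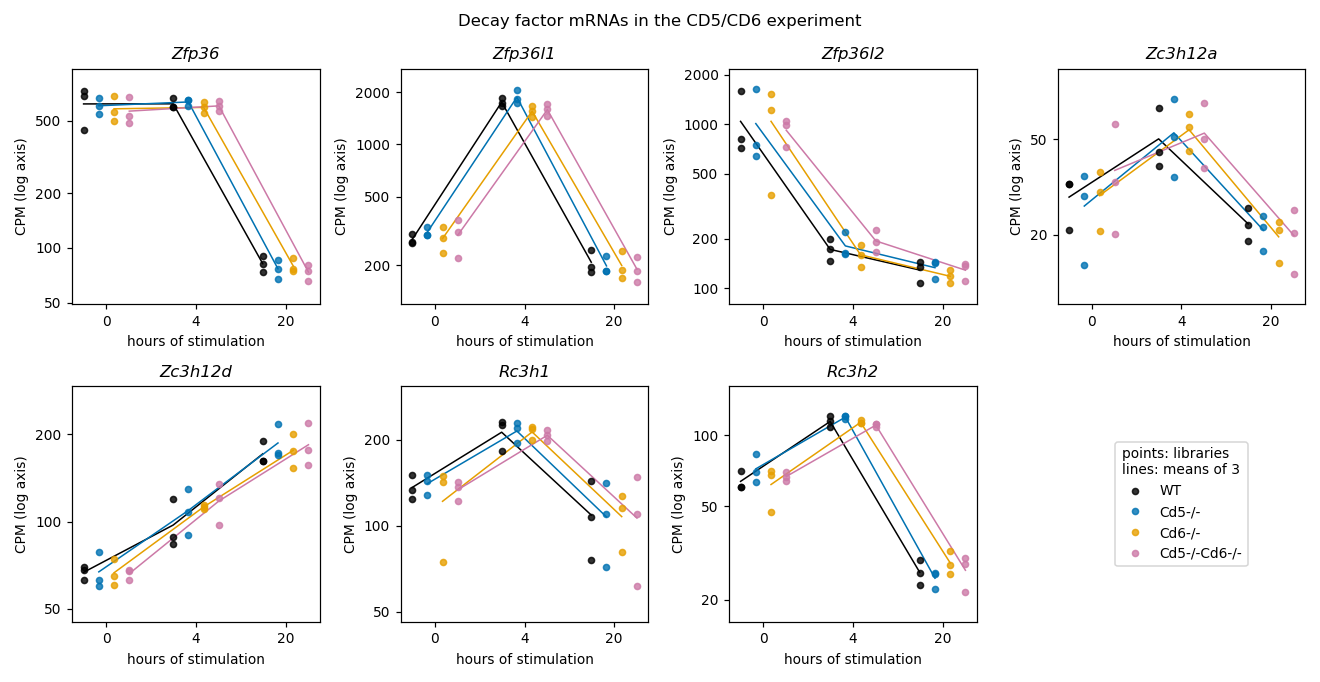
CPM of the 7 members (log axis) against hours of stimulation (3 times, evenly spaced) in the CD5/CD6 experiment, with 1 point per library, lines through the means of 3 libraries, and genotypes in color. In WT cells, Zfp36l1 peaked at 4 h with a mean of 1756 CPM, Zfp36l2 started at a mean of 1041 CPM and was low at both later times, and no member was called between genotypes at any time.

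WT cells of the LAT experiment were a separate set of 9 libraries and gave the same directions for the members called in both. At 4 h 5 members rose and 1 fell (29% of genes called), at 20 h against 0 h 1 rose and 3 fell (34.7%), and at 20 h against 4 h 1 rose and 6 fell (29.5%). Zfp36l1 had 256, 202 and 272 CPM at 0 h, 1837, 1988 and 1463 CPM at 4 h, and 261, 275 and 237 CPM at 20 h, so that its 20 h libraries overlapped those of 0 h here, with a log2 fold change equal to 0.08 (SE 0.15, adjusted p = 0.75). At 4 h its log2 fold change was 2.86 (SE 0.16, adjusted p = 9.6e-72). Zfp36l2 went from 654, 327 and 821 CPM at 0 h to 169, 218 and 261 CPM at 4 h and 147, 141 and 118 CPM at 20 h. The times of Zfp36l2 did not overlap, and the log2 fold changes were -1.47 (SE 0.15, adjusted p = 2.2e-21) and -2.15 (SE 0.15, adjusted p = 5.3e-43). Zfp36 went from 638, 443 and 616 CPM at 0 h to 718, 719 and 642 CPM at 4 h, a log2 fold change equal to 0.29 (SE 0.15, adjusted p = 0.13) that was not called although the 4 h libraries were all above those of 0 h, and to 112, 116 and 90.7 CPM at 20 h, a log2 fold change equal to -2.41 (SE 0.15, adjusted p = 8.6e-53). Without replicate 3 the 4 h value of Zfp36 was called (log2 0.40, adjusted p = 0.037). At 20 h Zc3h12d was again higher than at 0 h, with a log2 fold change equal to 1.35, and Rc3h2 was lower, with -0.87. The calls at 4 h were lost for Zc3h12a without replicate 1 (adjusted p = 0.076), and without replicate 2 for Rc3h1 (adjusted p = 0.54) and Rc3h2 (adjusted p = 0.11). With library totals Zc3h12a and Rc3h1 were not called at 4 h either (adjusted p = 0.061 and 0.054).

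On a scale that also divides by the length of merged exons (RPKM, that is CPM per kilobase), levels can be set side by side between genes. In the unstimulated WT group of the CD5/CD6 experiment the order was Zfp36l2 with 295 ± 136 RPKM (mean ± SD, n = 3), Zfp36 with 179 ± 43.8, Zfp36l1 with 94.3 ± 6.84, Zc3h12d with 16.3 ± 0.900, Rc3h1 with 11.9 ± 1.15, Zc3h12a with 9.95 ± 2.35, and Rc3h2 with 3.24 ± 0.310. The libraries of Zfp36l2 and Zfp36 overlapped, as did those of Rc3h1 and Zc3h12a, and the other neighbors did not. Merged exons of Rc3h2 span 19624 bases, against 8948 in its longest coding transcript, so its RPKM is understated. The ZFP36 paralogs summed to 568 ± 99.0 RPKM at 0 h, 815 ± 30.1 at 4 h, and 130.05 ± 15.7 at 20 h. Of this sum Zfp36l2 held 50.3% ± 13.9 at 0 h, 5.99% ± 0.718 at 4 h, and 28.2% ± 3.37 at 20 h. Zfp36l1 held 16.8% ± 1.61, 72.0% ± 1.4996, and 53.6% ± 2.48, and Zfp36 held 32.9% ± 12.3, 22.0% ± 2.21, and 18.2% ± 1.98. By mean share the leading paralog was Zfp36l2 at 0 h and Zfp36l1 at 4 h, although in replicate 2 at 0 h Zfp36 was ahead of Zfp36l2, with 209.7 against 202.6 RPKM. The sum at 20 h was below that of every earlier library.

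WT cells of the LAT experiment had paralog sums of 414 ± 112 RPKM at 0 h, 851 ± 94.2 at 4 h, and 155 ± 14.3 at 20 h. Zfp36l1 held 20.1% ± 2.87, 69.1% ± 3.20, and 55.6% ± 1.51 of them, Zfp36l2 39.8% ± 7.16, 7.34% ± 2.27, and 24.7% ± 1.00, and Zfp36 40.1% ± 4.49, 23.6% ± 1.28, and 19.7% ± 0.749. At 0 h the mean shares of Zfp36 and Zfp36l2 were here nearly equal, and their libraries overlapped. In Lat-/- cells the sums were 414 ± 95.3, 314 ± 23.6, and 262 ± 3.61 RPKM, without the peak at 4 h. Zfp36l1 held 18.8% ± 2.34, 37.2% ± 3.04, and 28.4% ± 1.17 of these, Zfp36l2 48.7% ± 5.45, 37.2% ± 5.05, and 43.2% ± 4.17, and Zfp36 32.5% ± 3.95, 25.6% ± 2.06, and 28.4% ± 3.61. At 20 h Zfp36l2 was the leading paralog in Lat-/- cells, whereas in WT cells it was Zfp36l1.

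**Figure D2:**
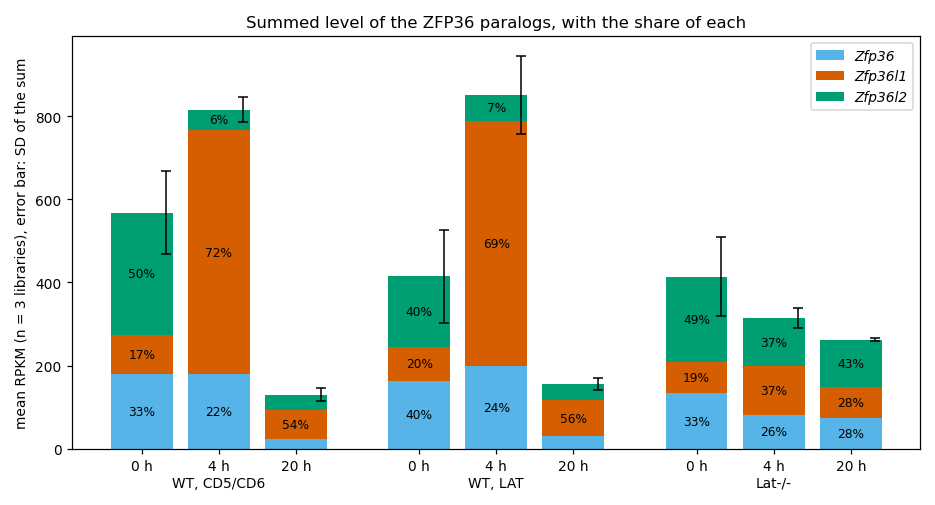
Mean RPKM of Zfp36, Zfp36l1, and Zfp36l2 stacked for each time in WT cells of both experiments and in Lat-/- cells (n = 3 libraries), with the share of each paralog printed in segments above 40 RPKM and the SD of the sum as an error bar. Zfp36l1 makes up 72.0% and 69.1% of the sum in WT cells at 4 h and 37.2% in Lat-/- cells.

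The CD5/CD6 experiment then asked whether the loss of CD5, of CD6, or of both altered these mRNAs. None of the 7 members was called in any of the 9 comparisons with WT cells at the same time or in any of the 6 comparisons of the response with that of WT cells, by edgeR or by DESeq2, and none reached an unadjusted p under 0.05 by edgeR. Over all 32290 genes tested, 541 to 1096 reached such a p in a comparison at the same time. For the responses 559 to 739 genes did, so 0 among 7 members does not set them apart. Few genes were called at all: the share was 0.0619%, 0.0867%, and 0.0217% for Cd5-/- cells at 0, 4, and 20 h. It was 0%, 0.0031%, and 0.0186% for Cd6-/- cells, and 0.0279%, 0.0434%, and 0.0465% for Cd5-/-Cd6-/- cells. With 0 genes called at 0 h, not even Cd6 was called in Cd6-/- cells, a group that holds a library of the pair that looked exchanged. The Cd5-/- and Cd6-/- shares at 0 h and for the responses include this pair, and shares without it are not given here. Of the responses at 4 and 20 h, 0.0031% and 0.0031% of genes were called for Cd5-/-, 0% and 0.0031% for Cd6-/-, and 0% and 0% for Cd5-/-Cd6-/- cells. The log2 differences from WT cells at the same time ran from -0.18 to 0.37 over the members. Their 95% intervals reached from -0.46 to 0.34 for Zfp36, -0.49 to 0.45 for Zfp36l1, -0.66 to 0.65 for Zfp36l2, -0.33 to 0.59 for Zc3h12d, -0.56 to 0.45 for Rc3h1, and -0.39 to 0.48 for Rc3h2, and were widest for Zc3h12a with -0.67 to 0.86. Differences between responses ran from -0.53 to 0.35, with wider intervals, from -1.23 to 0.90 for Zc3h12a and -0.81 to 1.03 for Zfp36l2. All these intervals come from the fit without the replicate block, although same-numbered libraries deviated together in the comparisons at the same time. Blocked intervals are not given here, and the block added no call. Differences inside the intervals could not be told from 0 in this fit with 3 libraries per group. The counts of members called stayed at 0 when the doubtful 0 h libraries were left out.

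Each knockout of the CD5/CD6 experiment responded in the directions of WT cells. At 4 h 5 members rose and 1 fell in Cd5-/- cells (28.4% of genes called), likewise for Cd6-/- cells (27.2%), while 4 rose and 1 fell in Cd5-/-Cd6-/- cells (26.4%). At 20 h 1 rose and 4 fell in Cd5-/- cells (38.1%), likewise for Cd6-/- cells (36.8%), while 1 rose and 5 fell in Cd5-/-Cd6-/- cells (38.3%). The log2 fold changes over the 3 knockouts at 4 h were 2.41 to 2.59 for Zfp36l1, -2.70 to -2.24 for Zfp36l2, 0.71 to 0.83 for Zc3h12d, 0.61 to 0.81 for Rc3h1, and 0.72 to 0.87 for Rc3h2, each called in all 3. Of these calls, that of Zc3h12d in Cd5-/- cells was lost without replicate 1 (adjusted p = 0.074) and that of Rc3h1 in Cd5-/-Cd6-/- cells without replicate 2 (adjusted p = 0.059), and with library totals Rc3h1 was not called in either (adjusted p = 0.21 and 0.22). Zfp36 had 0.03 to 0.10 and was called in none, and with library totals its values were -0.15, -0.18, and -0.16. Zc3h12a had 0.52 to 1.02 and was called in Cd5-/- and in Cd6-/- cells, in the latter not with library totals (log2 0.71, adjusted p = 0.06). In Cd5-/-Cd6-/- cells, where its value was 0.52 (SE 0.25, adjusted p = 0.13), it was called with the replicate number as a block (log2 0.55, adjusted p = 0.0092), with the compared groups alone (adjusted p = 0.0038), and without replicate 1 (log2 1.03, adjusted p = 1.0e-04) or replicate 3 (log2 0.41, adjusted p = 0.023). At 20 h Zfp36 had -2.98 to -2.87, Zfp36l2 -3.14 to -2.83, Zfp36l1 -0.65 to -0.52, Rc3h2 -1.54 to -1.11, and Zc3h12d 1.40 to 1.48, each called in all 3 knockouts, with the Zfp36l1 call lost without replicate 1 for Cd6-/- (adjusted p = 0.22) and Cd5-/-Cd6-/- cells (adjusted p = 0.063), and for Cd6-/- cells also with the compared groups alone (adjusted p = 0.052). Rc3h1 had -0.39 to -0.18 at 20 h and was called in none, but in Cd5-/- cells with the block (log2 -0.43, adjusted p = 0.011) or the compared groups alone (adjusted p = 0.044), and without replicate 1 in Cd5-/- (log2 -0.58, adjusted p = 0.026) and Cd5-/-Cd6-/- cells (log2 -0.59, adjusted p = 0.022). Zc3h12a had -0.90 to -0.33 at 20 h and was called in Cd5-/-Cd6-/- cells, and without replicate 3 in Cd5-/- cells (log2 -0.49, adjusted p = 0.004). In Cd6-/- cells Zc3h12a was called with the block (log2 -0.56, adjusted p = 0.007), without replicate 2 (log2 -0.68, adjusted p = 0.02) or replicate 3 (log2 -0.61, adjusted p = 2.2e-04), and without the doubtful 0 h libraries (adjusted p = 0.044), a change that left every other count of members called in the knockouts as it was.

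The LAT experiment asked how the same stimulus acted on cells without the LAT adaptor. Before stimulation no member was called between Lat-/- and WT cells by edgeR or DESeq2 (1.59% of genes called by edgeR). By edgeR 2 had an unadjusted p under 0.05, Zfp36 at log2 -0.29 and Zc3h12a at log2 -0.42, as had 1693 of all 27780 genes tested. At 4 h Zfp36l1 and Zfp36 were lower and Zfp36l2 was higher in Lat-/- than in WT cells, and Zc3h12a was slightly lower (4 members called, 23.9% of genes called). At 20 h Zfp36, Zfp36l2, Rc3h1, and Rc3h2 were higher and Zc3h12a was lower in Lat-/- cells (5 members called, 35.2% of genes called).

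Zfp36l1 showed the widest gap. At 4 h it had 360.1, 293 and 399 CPM in Lat-/- cells, against 1837, 1988 and 1463 CPM in WT cells, a log2 difference of -2.33 (SE 0.15, adjusted p = 2.0e-49). Its Lat-/- libraries at 0 h had 225, 204 and 257 CPM, below all of those at 4 h, so a rise remained in Lat-/- cells with a log2 fold change equal to 0.62 (SE 0.15, adjusted p = 3.7e-04). The response of Lat-/- cells at 4 h was smaller than that of WT cells by a log2 difference of -2.24 (SE 0.21, adjusted p = 7.3e-24). At 20 h it had 228, 216 and 225 CPM in Lat-/- and 261, 275 and 237 CPM in WT cells, groups that did not overlap but whose log2 difference of -0.21 (SE 0.15, adjusted p = 0.31) was not called.

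Zfp36 had 516, 369 and 497 CPM in Lat-/- cells at 0 h, 295, 232 and 313 CPM at 4 h, and 239.6, 240.3 and 295 CPM at 20 h. In contrast to WT cells, both later times were below 0 h, and the 4 and 20 h libraries overlapped. The log2 fold change in Lat-/- cells was -0.72 (SE 0.15, adjusted p = 2.1e-05) at 4 h and -0.84 (SE 0.15, adjusted p = 7.9e-07) at 20 h. The difference from WT cells turned with time, with log2 -1.31 (SE 0.15, adjusted p = 7.0e-17) at 4 h and 1.28 (SE 0.15, adjusted p = 1.2e-16) at 20 h. The responses differed by a log2 of -1.01 (SE 0.21, adjusted p = 2.3e-05) at 4 h and 1.58 (SE 0.21, adjusted p = 9.6e-13) at 20 h.

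Zfp36l2 had 672, 507 and 987 CPM in Lat-/- cells at 0 h, 409, 433 and 385 CPM at 4 h, and 402, 440.5 and 357 CPM at 20 h. The stimulated Lat-/- libraries were below those of 0 h and above all stimulated WT libraries. Its log2 fold change in Lat-/- cells was -0.82 (SE 0.15, adjusted p = 7.5e-07) at 4 h and -0.85 (SE 0.15, adjusted p = 4.0e-07) at 20 h. Lat-/- cells exceeded WT cells by a log2 of 0.92 (SE 0.15, adjusted p = 7.8e-09) at 4 h and 1.56 (SE 0.15, adjusted p = 4.9e-24) at 20 h. The responses differed by a log2 of 1.30 (SE 0.21, adjusted p = 6.3e-09) at 20 h. At 4 h the difference of responses was 0.65 (SE 0.21, adjusted p = 0.014), and it was not called by DESeq2 (adjusted p = 0.14), with edgeR's filterByExpr (adjusted p = 0.18), or without replicate 1 (adjusted p = 0.56).

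Of the Regnase genes, Zc3h12a had 13.3, 8.68 and 12.0 CPM in Lat-/- cells at 20 h and 25.5, 28.2 and 27.7 CPM in WT cells, with no overlap and a log2 difference of -1.26 (SE 0.18, adjusted p = 2.1e-11). At 0 h the Lat-/- libraries had 18.5, 12.4 and 26.4 CPM and those of WT cells 27.8, 19.6 and 29.7 CPM, which overlapped, with a log2 difference of -0.42 (SE 0.18, adjusted p = 0.47). At 4 h the log2 difference was -0.50 (SE 0.17, adjusted p = 0.022), which was not called by DESeq2 (adjusted p = 0.071), with filterByExpr (adjusted p = 0.067), with library totals (adjusted p = 0.15), or without replicate 1 (adjusted p = 0.49) or replicate 2 (adjusted p = 0.13). From 0 to 20 h Zc3h12a fell in Lat-/- cells, with a log2 fold change equal to -0.76 (SE 0.18, adjusted p = 5.4e-04), a call lost without replicate 3 (adjusted p = 0.15), and in WT cells it had 0.08 (SE 0.17, adjusted p = 0.84). The responses differed by a log2 of -0.84 (SE 0.25, adjusted p = 0.0043), which was not called without replicate 2 (adjusted p = 0.071) or replicate 3 (adjusted p = 0.077). Zc3h12d rose in Lat-/- as in WT cells, with log2 fold changes of 0.91 (SE 0.15, adjusted p = 6.1e-08) at 4 h and 1.02 (SE 0.15, adjusted p = 1.2e-09) at 20 h. Its 20 h libraries had 127, 119 and 139.7 CPM in Lat-/- and 168, 181 and 141 CPM in WT cells, without overlap, and the log2 difference of -0.34 (SE 0.15, adjusted p = 0.062) was called by DESeq2 (adjusted p = 0.012), with RLE factors (adjusted p = 0.032), filterByExpr (adjusted p = 0.032), or library totals (adjusted p = 0.025), with the compared groups alone (log2 -0.29, adjusted p = 0.033), and without replicate 3 (log2 -0.49, adjusted p = 0.012).

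Both Roquin genes were higher in Lat-/- than in WT cells at 20 h. Rc3h2 had 46.7, 43.9 and 54.9 CPM at 0 h, 85.5, 75.4 and 79.2 CPM at 4 h, and 84.2, 74.5 and 54.5 CPM at 20 h in Lat-/- cells, and 56.5, 35.5 and 56.8 CPM, 78.1, 88.5 and 73.1 CPM, and 30.0, 29.4 and 22.1 CPM in WT cells. At 4 h the groups overlapped, with a log2 difference of 0.00 and a 95% interval of -0.30 to 0.31, and at 20 h all Lat-/- libraries were above all WT libraries, with a log2 difference of 1.39 (SE 0.16, adjusted p = 2.5e-17). From 0 to 20 h Rc3h2 rose in Lat-/- cells, with a log2 fold change equal to 0.55 (SE 0.16, adjusted p = 0.0059), and fell in WT cells, with -0.87 (SE 0.16, adjusted p = 2.1e-07). The rise in Lat-/- cells was not called without replicate 1 (adjusted p = 0.48) or replicate 2 (adjusted p = 0.093), whereas the difference between responses was 1.42 (SE 0.22, adjusted p = 1.8e-09) and was called under every alternative run. Rc3h1 had 81.1, 79.0 and 96.3 CPM at 0 h and 168, 156 and 105 CPM at 20 h in Lat-/- cells, and 108, 64.4 and 115 CPM and 106, 107 and 88.7 CPM in WT cells. The 20 h libraries of the genotypes overlapped, and replicate 3 of the Lat-/- cells was the lowest of its group. The log2 difference at 20 h was 0.51 (SE 0.15, adjusted p = 0.0027), not called without replicate 1 (adjusted p = 0.17), and that of the responses was 0.67 (SE 0.21, adjusted p = 0.0078), not called by DESeq2 (adjusted p = 0.07), with filterByExpr (adjusted p = 0.054), or without replicate 1 (adjusted p = 0.41). Within Lat-/- cells its rise from 0 to 20 h, 0.74 (SE 0.15, adjusted p = 2.8e-05), was lost without replicate 1 (adjusted p = 0.085). The same Lat-/- library, replicate 3 at 20 h, was the highest of its group for Tnf and Tnfrsf4, with 20.8 and 64.0 CPM, and had 17.2 CPM of Lat; the part of these in the spread of Rc3h1 was not tested.

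**Figure D3:**
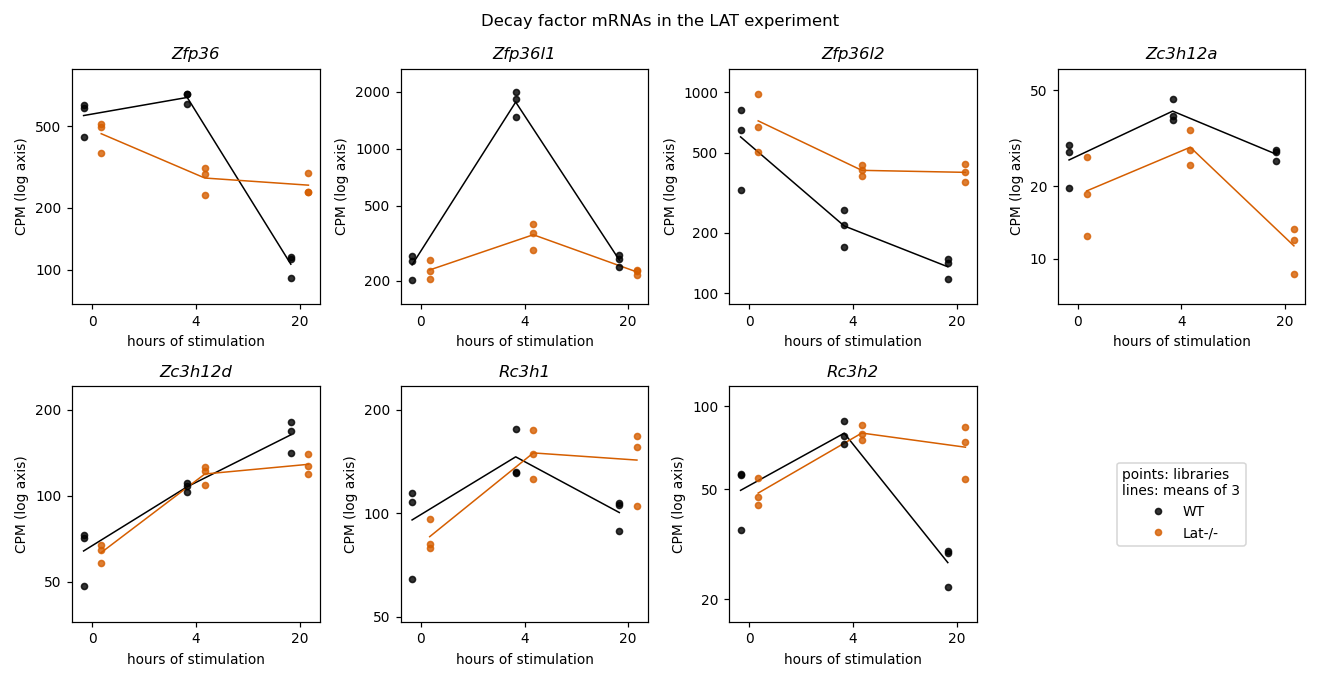
CPM of the 7 members (log axis) against hours of stimulation (3 times, evenly spaced) in WT and Lat-/- cells of the LAT experiment, with 1 point per library and lines through the means of 3 libraries. At 20 h Lat-/- cells had 399.9 CPM of Zfp36l2 and 71.1 CPM of Rc3h2 (means), against 135 and 27.1 CPM in WT cells.

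Within Lat-/- cells, all 7 members were called at 4 h against 0 h, 5 higher and 2 lower (15.4% of genes called), but each of these log2 fold changes was under 1 in size, and the rise of Zc3h12a, 0.60 (SE 0.18, adjusted p = 0.0066), was lost without replicate 1 (adjusted p = 0.16) or replicate 2 (adjusted p = 0.12). At 20 h 3 were higher and 3 lower (10.7%), and between 4 and 20 h 2 fell, Zfp36l1 and Zc3h12a (10.1%). Of the differences between the responses of Lat-/- and WT cells, 3 members were called at 4 h, Zfp36, Zfp36l1, and Zfp36l2 (15% of genes called), joined by Rc3h1 when replicate 2 was left out (log2 0.66, adjusted p = 0.039), and 5 at 20 h, Zfp36, Zfp36l2, Zc3h12a, Rc3h1, and Rc3h2 (26.3%). WT and Lat-/- responses are each taken against their own 0 h libraries, and the comparisons at 4 and 20 h share those libraries.

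**Figure D4:**
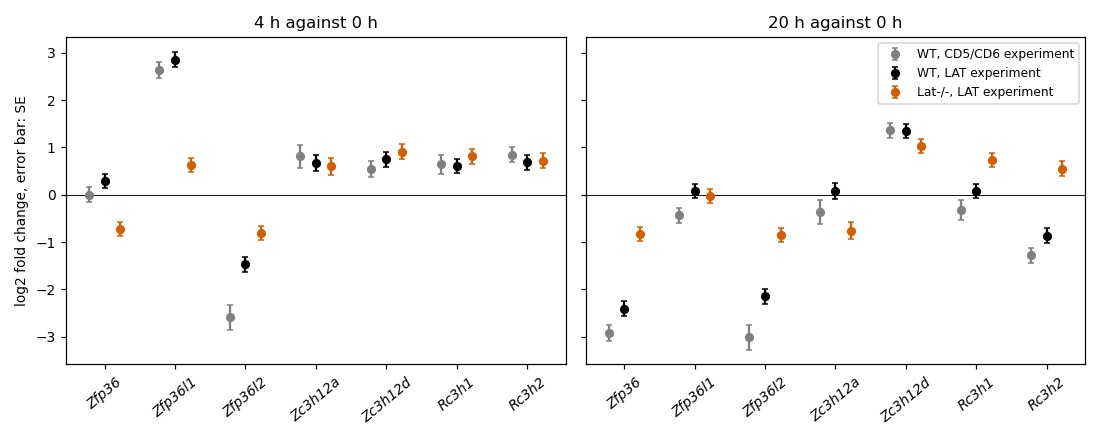
Log2 fold change of the 7 members at 4 h (left) and 20 h (right) against 0 h in WT cells of both experiments and in Lat-/- cells, with the SE as error bars. At 4 h Zfp36l1 is at 2.64 and 2.86 in the WT cells and at 0.62 in Lat-/- cells, and at 20 h Rc3h2 is at -1.28 and -0.87 in the WT cells and at 0.55 in Lat-/- cells.

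The machinery that the members recruit was followed by lists of genes. Over all genes tested, many of them with few reads, 13.3% rose and 15.2% fell in the WT group of the CD5/CD6 experiment at 4 h. The counts of these lists stand beside those shares, and shares among genes of like level are not given here. The exosome list holds genes of the RNA exosome, which degrades mRNA from the 3′ end, and of its cofactors. In the WT group of the CD5/CD6 experiment at 4 h, 10 of its 14 tested genes rose and 1 fell (median log2 fold change 1.01). Dis3, the catalytic ribonuclease of the exosome, was at 2.19, Exosc2 at 1.42, and the cofactors Wdr61 and Ttc37 at 1.56 and 1.31. Of 16 decapping and 5′ decay genes, 9 rose and 3 fell (median 0.49), with the decapping enzyme Dcp2 at 1.06, Lsm7 at 1.91, Lsm2 at 1.05, and the 5′ exonuclease Xrn1 at -0.90. Of 17 deadenylation genes, 6 rose and 5 fell (median 0.20), with Cnot11 at 1.12, Btg2 at 0.96, Tob1, an adaptor of the deadenylases, at -1.25, and Pan3 at -1.23. Of 13 other AU-rich element and stem-loop binding proteins, 6 rose and 2 fell (median 0.44), with Zc3h12c (Regnase-3) at 1.45, Elavl1, a stabilizing competitor for AU-rich elements, at 1.25, Hnrnpd at 1.20, and Arid5a, which protects Regnase-1 targets, at -0.96.

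Of 10 genes whose products act on the decay factors, 5 rose and 5 fell at 4 h (median 0.07). Malt1, the protease that cleaves Regnase-1 and Roquin, was at 1.61. Mapkapk3, a kinase of the p38 pathway that phosphorylates ZFP36, was at 1.74, and Dusp1 at -2.42. Of 10 immediate early genes, 5 rose and 4 fell (median -0.17), with Egr2 at 5.67, Nr4a1 at 5.30, Atf3 at 4.01, and Jun at -3.89. Their summed level was 2368 to 6273 CPM in these WT libraries at 0 h and 9594 to 11041 CPM at 4 h, and over all 4 genotypes 1352 to 6863 CPM and 8483 to 11041 CPM.

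In Lat-/- against WT cells at 4 h, where 12% of all genes tested were lower and 11.9% higher, 11 of 14 genes of the exosome list were lower and 0 higher (median log2 difference -0.96). For decapping genes 5 of 16 were lower and 1 higher (median -0.23), and for deadenylation genes 3 of 17 were lower and 5 higher (median -0.01). Of the other binding proteins 6 of 13 were lower and 2 higher (median -0.30), and of the regulators 4 of 10 were lower and 2 higher (median -0.17). Immediate early genes were lower in 7 of 10 cases and higher in 1 (median -1.39). At 20 h, where 17.6% of all genes were lower and 17.6% higher, 12 genes of the exosome list were lower (median -1.10), whereas the deadenylation list was divided, with 8 higher and 4 lower (median 0.21).

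Of 16 mRNAs reported as targets of these proteins, 12 rose and 0 fell at 4 h in the WT group of the CD5/CD6 experiment (median log2 fold change 2.64), and 10 rose and 2 fell at 20 h (median 2.09). Of all genes tested, 13.3% rose and 15.2% fell at 4 h, and 16.9% rose and 21.1% fell at 20 h. Tnf, a ZFP36 target with the AU-rich cluster shown above, had 12.4 ± 5.60 CPM at 0 h, 706 ± 161 CPM at 4 h, and 115 ± 18.4 CPM at 20 h (mean ± SD, n = 3). Its log2 fold change was 5.82 at 4 h and 3.20 at 20 h, and between 4 and 20 h it fell, with a log2 difference of -2.62 (SE 0.26, adjusted p = 3.1e-14). Il2, the T cell growth factor, had 0.162 ± 0.0102 CPM, 45.8 ± 8.82 CPM, and 165 ± 55.9 CPM, and between 4 and 20 h it rose by a log2 of 1.85 (SE 0.27, adjusted p = 3.5e-08). Icos, a costimulatory receptor and Roquin target, had 3.17 ± 0.121 CPM, 17.0 ± 3.44 CPM, and 14.6 ± 1.14 CPM, with log2 fold changes of 2.42 and 2.20. Tnfrsf4, which codes for the receptor OX40, had 15.6 ± 1.80 CPM, 157 ± 12.1 CPM, and 564 ± 75.0 CPM, with log2 fold changes of 3.33 and 5.18. Ifng stayed at or below 6.07 CPM in WT libraries at 4 h, with a log2 fold change equal to 1.61 (SE 0.64, adjusted p = 0.049), and at 20 h its value of 1.43 (SE 0.65, adjusted p = 0.075) was not called. Irf4, a transcription factor of activated T cells, had a log2 fold change equal to 6.61 at 4 h, and the cytokine Il3 had no reads in the WT libraries at 0 h and 1.54, 1.22 and 0.816 CPM at 4 h.

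In Lat-/- cells at 4 h, 10 of the 16 target mRNAs were lower and 2 higher than in WT cells (median log2 difference -1.61), and at 20 h 11 were lower and 4 higher (median -2.82), against 12% lower and 11.9% higher of all genes at 4 h and 17.6% of each at 20 h. Tnf had 51.1, 33.6 and 64.2 CPM in Lat-/- and 756, 583 and 574 CPM in WT cells at 4 h, a log2 difference of -3.68 (SE 0.17, adjusted p = 2.7e-105). Il2 had 0.455, 0.528 and 1.66 CPM against 31.4, 30.3 and 25.5 CPM (-5.05), Icos 5.01, 3.52 and 8.64 CPM against 13.5, 13.7 and 12.9 CPM (-1.22), and Tnfrsf4 38.6, 38.6 and 64.5 CPM against 213, 189.5 and 261 CPM (-2.23). Ifng went the other way at a low level, with 13.5, 1.94 and 5.77 CPM in Lat-/- and 0.841, 0.962 and 0.792 CPM in WT cells, a log2 difference of 3.04 (SE 0.42, adjusted p = 8.9e-12). At 20 h the log2 differences were -3.42 for Tnf, -4.57 for Il2, -1.81 for Icos, -3.92 for Tnfrsf4, and 3.03 for Ifng. That of Ifng rests on few reads, with 0.177 to 0.295 CPM in WT and 0.297 to 3.24 CPM in Lat-/- libraries. The level of 3 reads equals up to 0.176 CPM in this experiment. These are levels of mRNA, to which both synthesis and decay contribute, and neither was measured alone.

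For each member the genes with the most alike course were taken by Pearson's r of mean log2 CPM over the 12 conditions of the CD5/CD6 experiment, among 8211 protein-coding genes with a mean of at least 10 CPM, and r over the 6 conditions of the LAT experiment was set beside it. Each of the 12 means has its own libraries, but knockout and WT cells at the same time hardly differed. At most 0.0867% of genes were called in such a comparison, so the 12 conditions differ mainly by time. The r that the best of 8211 genes reaches without any link to a member was not tested, so r is a description. Zfp36l1 was most like Adamts6 (0.998 and 0.99), Arih2 (0.998 and 0.95), and Tbc1d30 (0.998 and 0.80), and Zfp36l2 most like Xylt2 (0.998 and 0.92), Def6 (0.998 and 0.88), and Ggt5 (0.997 and 0.95). Rc3h2 was most like Atxn1l (0.998 and 0.95), Lemd3 (0.997 and 0.95), and Smad3 (0.997 and 0.84), and Rc3h1 most like Zfp26 (0.997 and 0.94) and Mlxip (0.997 and 0.76). Zfp36 was most like Tmem127 (0.999 and 0.72), Gcc1 (0.998 and 0.84), and Pttg1ip (0.998 and 0.58). Zc3h12a was most like Bicd2 (0.986 and 0.81), Rpl10a (0.985 and 0.76), and Zhx2 (0.985 and 0.37), and Zc3h12d most like Gtf2e2 (0.995 and 0.56), Rmdn3 (0.994 and 0.10), and Gk (0.994 and 0.40). Between members, r over the 12 conditions was highest for Zfp36l1 with Rc3h1, at 0.98, and lowest for Zfp36l2 with Zc3h12d, at -0.92, and over the 6 conditions of the LAT experiment these pairs had 0.53 and -0.81.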

How the data were processed

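RNA was measured by sequencing in 54 libraries, 36 of the CD5/CD6 experiment and 18 of the LAT experiment, grouped by genotype and time as their labels give them. The authors prepared stranded mRNA libraries, aligned single reads to GRCm38 (mm10) by STAR, and summed them over genes by featureCounts, and they deposited raw counts per gene together with a gene length in 1 table per experiment. Per the labels, bcl2fastq 2.17.1.14 and DESeq2 were also used, and the annotation release and the use of strand are not given in the sources used here. The tables were fitted separately. Gene identifiers were matched to GENCODE M21 without their version, and 55144 of 55385 matched.

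The deposited counts went into edgeR 4.0.16 under R 4.3.3. Genes with at least 1 read were kept (32290 and 27780), TMM factors were used, all groups of an experiment shared 1 fit, and contrasts were tested with the quasi-likelihood test with Benjamini-Hochberg adjustment over all genes, with a call at an adjusted p under 0.05. Intervals are the log2 value ± 1.96 SE. CPM are counts scaled to library size (the library total times its TMM factor), and RPKM divides them by the length of merged exons in kilobases. Simulated counts with 200 changed genes were labelled as WT cells at 4 and 0 h. Of the changed genes, edgeR called 195, with 6 unchanged genes among 24399, for the CD5/CD6 experiment. For the LAT experiment it called 197, with 7 unchanged genes among 21852. The share of real changes that edgeR calls in the sequenced libraries was not tested. The alternatives were RLE factors, library totals, filterByExpr, DESeq2 1.42.0, the compared groups alone, a replicate block, leaving out each replicate, an added fold change above 2, and leaving out both doubtful 0 h libraries.

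The design states biological replicates. Same-numbered libraries of the CD5/CD6 experiment deviated together: every pair's correlation of deviations was over 0.1 in 16 of 18 comparisons (0.07 to 0.87 over all), the exceptions being 4 against 0 h in Cd6-/- and 20 against 0 h in Cd5-/-Cd6-/- cells, so blocked values stand beside results where they change a call. The members and gene lists were chosen with earlier results of these data known. Named genes were the members, the targeted genes, for each member the 3 genes with the highest r, up to 4 called genes per list with the largest change at 4 h in the WT group of the CD5/CD6 experiment, and 5 targets. Of the genes this rule names, 2 are not reported here. The level of 3 reads covers counting error only.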

Additional observations from a re-analysis of the deposited data

Results flagged for a closer look

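The response to stimulation differed between Lat-/- and WT cells, by a test of the difference itself, for 3 members at 4 h and 5 at 20 h. At 4 h the difference of the log2 fold changes (Lat-/- minus WT) was -1.01 for Zfp36, -2.24 for Zfp36l1, and 0.65 for Zfp36l2. At 20 h it was 1.58 for Zfp36, 1.30 for Zfp36l2, -0.84 for Zc3h12a, 0.67 for Rc3h1, and 1.42 for Rc3h2. For Zfp36 the difference was negative at 4 h and positive at 20 h. In the CD5/CD6 experiment 0 of the 42 such differences were called by edgeR, and 0 had an unadjusted p under 0.05. Of all 32290 genes, 559 to 739 had such a p in each of these comparisons.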

How the results depend on the processing

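Of 360 recounts of called members over the 35 comparisons, 348 were within 1.5 times the reported count. These include counts that stayed at 0, as in all comparisons of the CD5/CD6 knockouts with WT cells and of Lat-/- with WT cells at 0 h. The 348 therefore overstates how stable the counts above 0 were. Of 1099 refitted log2 values, 1005 kept their direction and their side of the threshold, 40 lost a call, 26 gained one, and 28 changed sign; the cause was not tested. Where a fold change above 2 was also asked for, 2 members instead of 6 passed at 4 h in the WT group of the CD5/CD6 experiment, 3 for Cd5-/- cells, 2 for Cd6-/- cells, and 2 for double knockout cells. In the LAT experiment 2 passed in WT cells at 4 h and 3 at 20 h against 4 h, and in Lat-/- cells 0 passed at 4 h, 1 at 20 h, and 1 at 20 h against 4 h. Between Lat-/- and WT cells 2 passed at 4 h, and 3 for the 20 h response. Shares of all genes that passed with the fold change, or were called with library totals, are not given here. Counts of members under these settings thus cannot be set against other genes. Library totals in place of TMM factors left 3 members called at 4 h in the WT group of the CD5/CD6 experiment, a setting that by construction shifts all genes, here by a log2 of -0.25, by -0.24 in LAT WT cells at 4 h, by 0.13 between Lat-/- and WT cells at 4 h, and by -0.14 in the WT group of the CD5/CD6 experiment at 20 h.

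The signs that changed belonged to values that were not called as reported. For Zfp36 at 4 h in the CD5/CD6 experiment the log2 value was -8.1e-03 with RLE factors, -8.1e-03 with DESeq2, and -0.25 with library totals in WT cells, and with library totals -0.15 in cells of the Cd5-/-, -0.18 of the Cd6-/-, and -0.16 of the Cd5-/-Cd6-/- genotype. For Rc3h2 between Lat-/- and WT cells at 4 h it was -5.5e-04 with filterByExpr, -2.2e-03 with the replicate block, and -6.7e-03 with the compared groups alone. For Zc3h12a the 4 h response difference was 0.0832 with library totals. Leaving out each replicate gave -0.16 to 0.13 for Zfp36 at 4 h in WT, -0.0256 to 0.19 for Cd5-/- cells, -0.0533 to 0.17 for Cd6-/- cells, and -0.0436 to 0.21 for double knockout cells. In LAT WT cells at 20 h it gave -0.14 to 0.24 for Zfp36l1, -0.16 to 0.20 for Zc3h12a, and -0.25 to 0.32 for Rc3h1, and in Lat-/- cells at 20 h -0.0900 to 0.0721 for Zfp36l1. Between Lat-/- and WT cells at 4 h it gave -0.13 to 0.33 for Rc3h1 and -0.0411 to 0.15 for Rc3h2. For the 4 h response difference it gave -0.0640 to 0.00272 for Zc3h12a, -0.0844 to 0.66 for Rc3h1 (the latter called, without replicate 2), and -0.12 to 0.31 for Rc3h2, and for that at 20 h -0.19 to 0.0468 for Zfp36l1.

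Shares of the ZFP36 sum moved by more than 1 SD with other lengths. Without division by length they were Zfp36l1 14.7% in the CD5/CD6 WT group at 0 h, Zfp36 24.4% and Zfp36l1 68.8% and Zfp36l2 6.76% in the CD5/CD6 WT group at 4 h, Zfp36l1 49.6% in the CD5/CD6 WT group at 20 h, Zfp36 26.0% and Zfp36l1 65.7% in the LAT WT group at 4 h, Zfp36 21.2% and Zfp36l1 51.7% and Zfp36l2 27.1% in the LAT WT group at 20 h, Zfp36l1 33.6% in Lat-/- cells at 4 h, and Zfp36l1 25.3% in Lat-/- cells at 20 h. With the length of the longest coding transcript, an alternative added after seeing the data, they were Zfp36 26.0% and Zfp36l1 68.4% in the CD5/CD6 WT group at 4 h, Zfp36 21.7% in the CD5/CD6 WT group at 20 h, Zfp36 45.4% in the LAT WT group at 0 h, Zfp36 27.7% and Zfp36l1 65.3% in the LAT WT group at 4 h, Zfp36 23.4% and Zfp36l1 53.1% and Zfp36l2 23.6% in the LAT WT group at 20 h, Zfp36 37.4% in Lat-/- cells at 0 h, Zfp36 30.0% in Lat-/- cells at 4 h, and Zfp36 33.0% and Zfp36l1 26.6% in Lat-/- cells at 20 h. Same-numbered libraries of the LAT experiment correlated at -0.34 to 0.48 in their deviations, so the numbers were not taken to pair them except between Lat-/- and WT cells at 0 h, and the replicate block left every count of called members there as it was. In Cd5-/-Cd6-/- cells at 20 h, where the numbers did not pair either, the block added a call for Rc3h1 (log2 -0.40, adjusted p = 0.021). The block changed no other call than those given here and in the results. With 3 libraries per group, small differences between genotypes of the CD5/CD6 experiment could not be detected.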
